A study of Mus musculus with 30 samples.

Results

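Thyroid hormone signalling in the hippocampus was described through 7 genes, Dio2, Slco1c1, Crym, Thra, Thrb, Klf9 and Hr, which are 7 of the 17477 genes in the count table. They cover activation of the hormone, its transport and binding in cells, its receptors and its responsive genes. The members were chosen by the measured level of Dio2, which was lower in isolated mice in these same libraries, so the difference between housing groups in these genes is given as a description, with no test. RNA-seq was run on hippocampus of adult C57 BL/6J mice that differed in housing after weaning. Social isolation (SI) mice were kept singly and group-housed (GH) mice shared cages, with no other treatment or genetic change in any group. Of the 30 mice, each with 1 library, 15 were female (8 SI, 7 GH) and 15 were male (7 SI, 8 GH).

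The libraries held between 18809307 and 100844898 counted fragments, and the SI males had the lowest median depth of the 4 groups, at 25609585. In a principal component analysis of the males alone, SI males 25, 33 and 39 stood apart from the other 12 along an axis that took 54.2% of the variance. Their scores lay between 63.4 and 103, against −37.6 to 0.75 in the other males. Male values that moved much with these 3 mice are therefore given with and without them. The 5 thalamus markers summed to 84.8 ± 43.7 CPM (counts scaled to a common library size, SD, n = 7) in SI males, from 47.7 to 174. In GH males they summed to 56.8 ± 8.93 (n = 8, exact permutation p = 0.0549, adjusted 0.198). The SI mean exceeded the GH mean also without the 3 mice (96.0 ± 56.1, n = 4). All 5 markers were higher in SI males at an unadjusted p under 0.05 (edgeR), beside 891 of 15833 genes tested. The part of these markers in the male values was not tested. The 7 markers of hippocampal neurons were present in every mouse, at a summed 714 ± 116 CPM in SI males (791 ± 88.1 without the 3 mice) and 709 ± 94.5 in GH males.

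The thyroid gland releases mainly thyroxine (T4), which has little affinity for the nuclear receptors. In the brain, T4 crosses the blood-brain barrier through transporters such as OATP1C1, the product of Slco1c1, and enters astrocytes. There type 2 deiodinase, the selenoenzyme encoded by Dio2, removes an outer-ring iodine to make the active hormone triiodothyronine (T3). Type 3 deiodinase, encoded by Dio3 and found mainly in neurons, inactivates it. T3 binds the receptors encoded by Thra and Thrb, which sit on DNA with retinoid X receptors and exchange corepressors for coactivators when hormone is bound. Klf9 and Hr are among the genes whose transcription in brain responds to T3, and Crym encodes μ-crystallin, a cytosolic T3-binding protein.

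Dio2 is the local source of T3 in brain, and it is where the 7 genes start. The gene (ENSMUSG00000007682) lies on the minus strand at chr12:91962994-91976878 in the NCBIM37 build. Its promoter is shown because Dio2 transcription is known to respond to cyclic AMP as well as to thyroid status. These are the 250 bases upstream of the RefSeq transcription start, chr12:90739039-90739288 on the minus strand of GRCm38.p6, written 5′ to 3′, with the cyclic AMP response element (CRE) in capitals.
Dio2: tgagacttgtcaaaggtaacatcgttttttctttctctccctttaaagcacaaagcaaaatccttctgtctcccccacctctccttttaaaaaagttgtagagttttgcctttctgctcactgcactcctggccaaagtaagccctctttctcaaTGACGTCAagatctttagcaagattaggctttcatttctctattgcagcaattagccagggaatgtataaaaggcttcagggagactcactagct
The letters TGACGTCA, the same on both strands, begin 95 bases before the start and occur in 508 of 32851 mouse promoters of this length (1.55%). The thyroid response half-site AGGTCA, searched on both strands and found in 14.0% of promoters, is not in these letters. Among the other members with an entry, it occurs in 1 of the 2 Thrb promoters and in neither the Klf9 nor the Slco1c1 promoter. The paired form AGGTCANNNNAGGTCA, found in 0.0152% of promoters, occurs in none of them. A match is a description of the letters only.

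Dio2 was lower in mean CPM in SI mice of both sexes, and more so in males. In SI females it ranged from 36.4 to 79.6 CPM with a median of 61.2 (mean 59.8 ± 13.4, SD, n = 8), and in GH females from 54.6 to 81.2 with a median of 71 (71.3 ± 9.14, n = 7). The female groups overlapped: 2 of the 8 SI females, animals 45 and 63, were below every GH female, and 7 of the 8 were below the GH median. In SI males it ranged from 34.6 to 66.9 CPM with a median of 44.4 (47.8 ± 11.4, n = 7), and in GH males from 48 to 82.5 with a median of 62.8 (65.4 ± 11.4, n = 8). Here 5 of the 7 SI males were below every GH male, and no SI male was above the highest GH male. The SI mean was 0.839 times the GH mean in females and 0.730 times in males. Males 25, 33 and 39 were alike, at 43.6, 45.6 and 44.4 CPM, and without them the male ratio was 0.767.

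**Figure D1:**
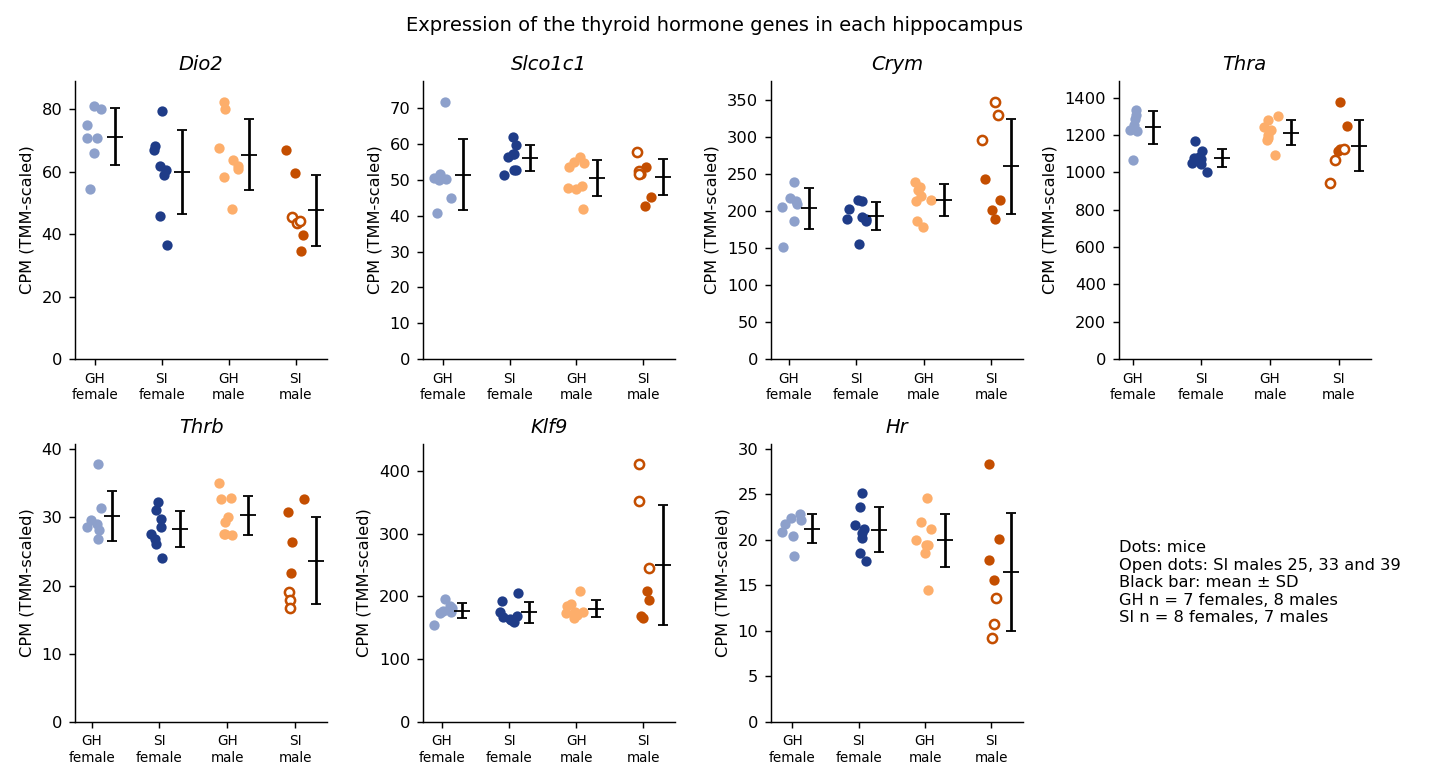
Level of each of the 7 genes in each mouse (CPM, scaled by TMM) in the 4 groups of mice. Dots are mice, open dots are SI males 25, 33 and 39, and black bars are the mean ± SD; Dio2 in SI males is at 34.6 to 66.9 CPM, 5 of 7 below every GH male, while Klf9 and Crym are highest in the open dots.

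In the fit across all genes, the Log2 fold change (Log2FC) of Dio2 in SI against GH females was −0.21 (standard error 0.0682, approximate 95% interval −0.35 to −0.08). Of the 16026 genes tested, 5.97% had a lower value. In males the Log2FC was −0.48 (standard error 0.149, interval −0.77 to −0.19), with 1.25% of 15833 genes lower. Dio2 chose the group by this contrast, so nothing is read from these intervals and shares. The male value shrank to −0.12 (standard error 0.0481) when males 25, 33 and 39 were left out and surrogate variables, the hidden factors estimated from the data, were found anew. Without these mice and without surrogate variables it was −0.38. Leaving out 1 mouse at a time gave −0.33 (without SI 52) to −0.15 (without SI 63) in females and −0.69 (without SI 27) to −0.35 (without SI 38) in males, all of the same sign. The negative Log2FC was thus smaller in size in females, and the female minus the male value was 0.25, with an interval of −0.12 to 0.63 that spans 0. For this interaction of sex and housing, edgeR called 0 of 16391 genes (1226 at an unadjusted p under 0.05) and DESeq2 called 8, none of them a member. The labels end in a position digit whose meaning they do not give. Within the digits that hold both housing groups, the SI minus GH difference in mean log2 CPM of Dio2 was 0.01, −0.23 and −0.64 in females (digits 1, 2 and 4) and −0.50, −0.22 and −0.33 in males (digits 1, 2 and 3), each from 1 to 4 mice a group.

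**Figure D2:**
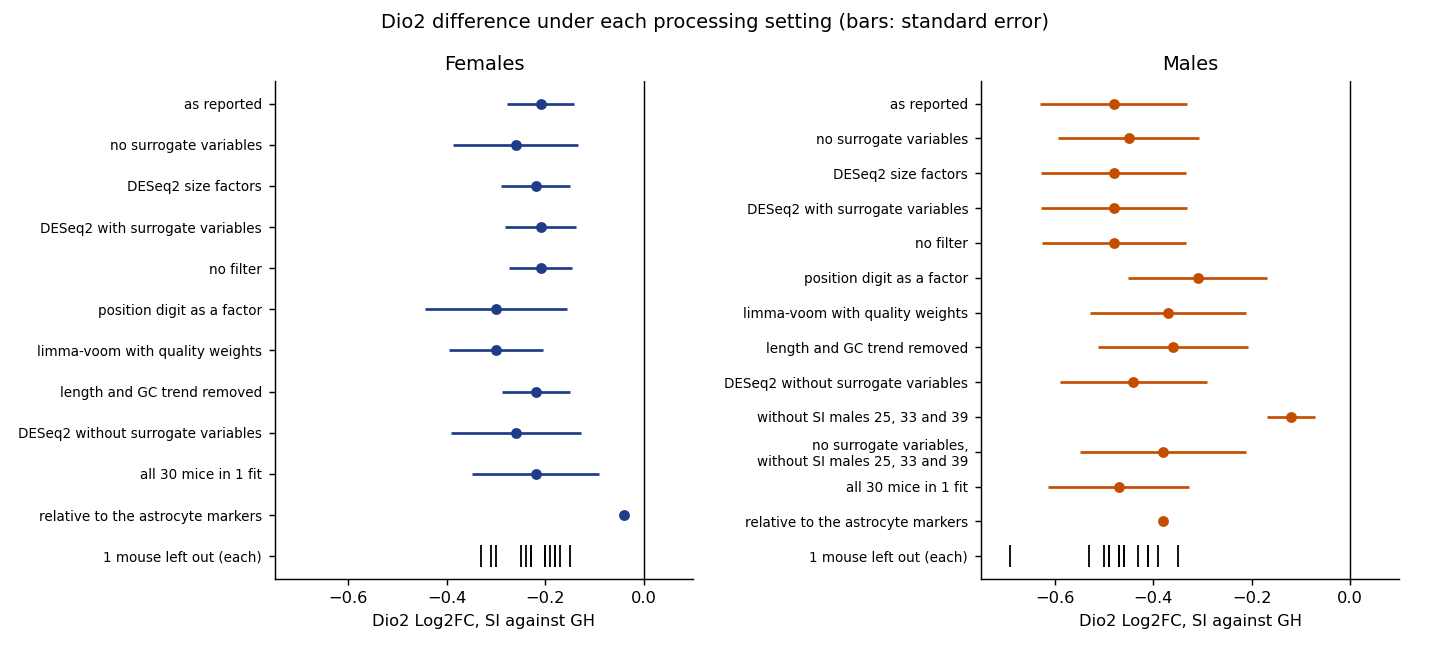
Dio2 Log2FC of SI against GH (x axis) under each way of processing the counts (y axis), in females and males. Points are fitted values with standard errors, ticks are fits with 1 mouse left out, and the values relative to the astrocyte markers have no error bar; all lie below 0, the nearest being −0.04 in females relative to the astrocyte markers and −0.12 in males without SI males 25, 33 and 39.

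Dio2 in brain is made mainly by astrocytes, and the astrocyte markers were lower in the same mice. All 10 markers (Gfap, Aqp4, Aldh1l1, Slc1a2, Slc1a3, Gja1, Gjb6, S100b, Aldoc and Sox9) had a negative Log2FC in females, with a median of −0.22 against 0.01 over all genes tested. Of these, 5 were differentially expressed genes (DEGs) at an adjusted p under 0.05, where 2.93% of all genes tested were lower at that threshold. Slc1a2, the main glutamate transporter of astrocytes, was the most reduced at −0.28 (standard error 0.0538, edgeR adjusted p = 0.0108), followed by Aldh1l1 at −0.27 (adjusted p = 0.0215). These calls depended on the fit: none of the 10 was called without SI female 45, without surrogate variables or with a factor for the position digit, and 1 without SI female 63 or 68, while all 10 were negative in each of these fits. In males 8 of 10 were negative, with a median of −0.17, and edgeR called none. Without animals 25, 33 and 39 the median was −0.02 when surrogate variables were found anew. Without these mice and without surrogate variables it was −0.13, with 9 of 10 negative. The summed astrocyte markers ranged from 4588 to 6542 CPM in SI females and from 5582 to 7553 in GH females (exact permutation p = 0.00373, two-sided; 0.0671 adjusted over 18 comparisons). In males they ranged from 4038 to 6225 in SI and from 5023 to 6933 in GH mice (exact permutation p = 0.0149, adjusted 0.0981; 0.145 without males 25, 33 and 39). Slc1a2 carried most of the male difference, at 1889 CPM in SI and 2765 in GH males, and without it the other 9 markers summed to 2950.1 ± 363 and 3125 ± 329.7 (exact permutation p = 0.341). Without animals 25, 33 and 39, these 9 summed to 2857 ± 482 in SI males, and all 10 to 5188 ± 972. In females the 9 markers summed to 3101 ± 419.5 and 3661 ± 305 without Slc1a2 (exact permutation p = 0.0135). S100b had a higher mean in SI males, at 204 against 112 CPM, but ranged from 78.6 to 399 in SI males. Its fitted male Log2FC was 0.06. The markers varied with Dio2 from mouse to mouse (below), and Dio2 chose the group. Their housing tests are thus not independent of that choice, and no support is drawn from them. In whole tissue, fewer cells of a type and less RNA per cell cannot be told apart.

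Relative to the mean log2 CPM of the 10 astrocyte markers, the Dio2 difference was small in females and remained in males. In females, Dio2 was lower by 0.28 and the astrocyte mean by 0.23, which leaves a difference in Dio2 relative to the markers of −0.04. In males, the Dio2 difference in mean log2 CPM was −0.47 and that of the astrocyte mean −0.09, which leaves −0.38, or −0.29 without males 25, 33 and 39. These 3 males had astrocyte means of 7.92, 7.92 and 7.97 log2 CPM, inside the range of the GH males (7.76 to 8.17), and Dio2 at 5.45, 5.51 and 5.47, below every GH male (5.59 to 6.37). In males the mean CPM of the markers did not move together. Slc1a2 averaged 1889 CPM in SI and 2765 in GH males, but S100b averaged 204 and 112, and Sox9 72.5 and 55.4. These means include males 25, 33 and 39, and the SI males were wide. They ranged from 1059 to 2801 CPM for Slc1a2, 78.6 to 399 for S100b and 49.1 to 106 for Sox9. The fitted male Log2FC was −0.36, 0.06 and 0.11. The male relative values therefore depend on which markers are averaged. No test was made of these relative values.

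**Figure D3:**
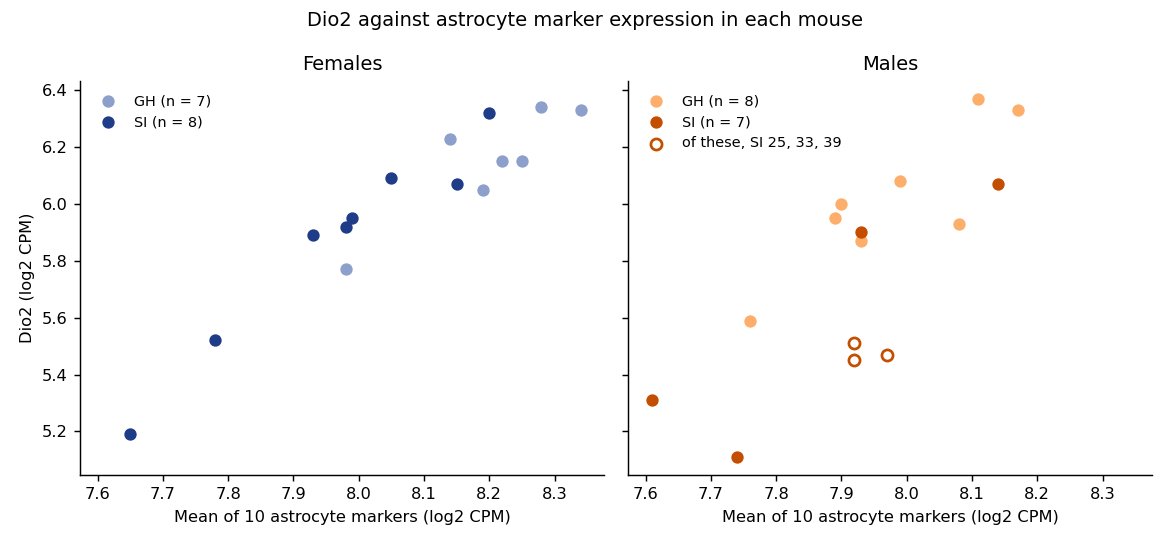
Dio2 (log2 CPM, y axis) against the mean of 10 astrocyte markers (log2 CPM, x axis) in each female and each male; dots are mice, coloured by housing, and open dots are SI males 25, 33 and 39. Female mice of both groups lie close to a rising line, from 5.19 to 6.34 log2 CPM of Dio2, and the 3 open dots lie below the other males of like astrocyte mean.

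Within groups, Dio2 also varied with the astrocyte markers from mouse to mouse. After group means were removed, Pearson's r between Dio2 and the astrocyte mean was 0.951 in the 15 females (permutation p = 2e-05 from 100000 draws; adjusted 4e-05 over 2 relations) and Spearman's rho was 0.843 (permutation p = 0.00033, adjusted 0.00066). Without the 2 females farthest from the median of Dio2, SI animals 45 and 63, r was 0.893. In the 15 males r was 0.823 (permutation p = 0.00064, adjusted 0.00064) and rho 0.743 (permutation p = 0.00311, adjusted 0.00311), and r was 0.804 without the 2 farthest males. Since males 25, 33 and 39 stand apart, r was also taken over the other 12 males, where it was 0.879 (permutation p = 0.00169). The points share library depth, RNA quality and dissection, whose part in the relation was not tested.

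None of the other 6 members followed Dio2 in this way. The strongest relations in females were with Thra (r = 0.439, permutation p = 0.07) and Klf9 (r = −0.459, permutation p = 0.117). In males Klf9 was at r = −0.317 over 15 mice and −0.633 over the 12 without animals 25, 33 and 39 (permutation p = 0.0869, not adjusted), and over all mice of a sex no member's Pearson correlation had an adjusted p below 0.466 over 12 relations in both sexes. The genes whose residual log2 CPM was most like Dio2 over 30 mice, among 15770 genes tested in both sexes, were Nxt2 (r = 0.930), Asrgl1 (0.924), Cnih4 (0.923), Pnpla8 (0.912) and Rftn2 (0.910). Over the 15 females their r ranged from 0.932 to 0.968, and over 12 males without animals 25, 33 and 39 from 0.901 to 0.954. These mice are among the 30 by which the genes were picked, so the values are no separate support. Thra was the most similar of the members, at r = 0.298, with 3194 genes more similar.

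Slco1c1 (ENSMUSG00000030235, chr6:141472907-141518241, plus strand), the T4 transporter of brain capillaries and astrocytes, was not lower with isolation. In SI females it ranged from 51.5 to 62.0 CPM (56.3 ± 3.67, n = 8) and in GH females from 40.7 to 71.9 (51.5 ± 9.82, n = 7). All 8 SI females were above the GH median of 50.3 CPM, although GH female 71 was the highest of all. In males both groups averaged 50.7 CPM (SD 5.07 in 7 SI and 5.0 in 8 GH mice). The Log2FC was 0.09 (standard error 0.0368) in females and −0.03 in males. The 9 endothelial markers summed to 308 ± 17.9 CPM in SI and 283 ± 19.4 in GH females (exact permutation p = 0.0218, adjusted 0.0981), so they moved in the same direction as Slco1c1, and their part in its value was not tested. Relative to the astrocyte mean, Slco1c1 was higher by 0.38 on the log2 scale in SI females and by 0.09 in SI males.

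Crym (ENSMUSG00000030905, chr7:127329894-127345625, minus strand), the cytosolic T3 binder, was close between groups in females and wide in SI males. It ranged from 155 to 215 CPM in SI females (193 ± 19.1, n = 8) and averaged 204 ± 28.2 in GH females (n = 7). In SI males it ranged from 189 to 348 CPM (260.4 ± 64.1, n = 7), against 214 ± 21.6 in GH males (n = 8). The 3 highest SI males were animals 25, 33 and 39 at 348, 330 and 296 CPM, and the other 4 averaged 212, which is 0.99 times the GH mean. The Log2FC was −0.07 in females and 0.00 in males with surrogate variables, and 0.28 in males without them.

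Thra and Thrb encode the hormone receptors, with Thra the main form in brain. Thra (ENSMUSG00000058756, chr11:98601952-98630320, plus strand) ranged from 1004 to 1166 CPM in SI females (1076 ± 48.8, n = 8) and from 1066 to 1336 in GH females (1242 ± 88.1, n = 7). All 8 SI females were below the GH median, and 3 were below GH female 71, which was itself the lowest GH female by a wide gap. Its female Log2FC was −0.18 (standard error 0.0302), and it was the 1 of the 7 members called a DEG in females, where 3.89% of all genes tested were called. Since Thra belongs to the contrast that chose the group, nothing is read from this call. It was also called in all 15 fits that left out 1 mouse, but not without surrogate variables or with the position digit as a factor. In males Thra averaged 1144 ± 137 CPM in SI and 1213 ± 65.6 in GH mice, and without animals 25, 33 and 39 the SI mean was 1217. The male Log2FC was −0.03. Thra overlaps Nr1d1 on the opposite strand, and whether the counting used strand is not given in the sources used here, so fragments of the pair may not have been told apart. Nr1d1, a clock repressor, had a Log2FC of −0.25 in females (edgeR adjusted p = 0.185) and 0.13 in males (adjusted p = 0.633).

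Thrb (ENSMUSG00000021779, chr14:18493474-18870602, plus strand) was more even in females, at 28.3 ± 2.70 CPM in 8 SI and 30.2 ± 3.62 in 7 GH mice. In SI males it ranged from 16.7 to 32.7 CPM (23.6 ± 6.39, n = 7) and in GH males from 27.4 to 35.0 (30.3 ± 2.92, n = 8). The lower end of the SI males was set by animals 25, 33 and 39, at 17.9, 19.1 and 16.7 CPM, although 2 of the other 4 were also below every GH male. Without these 3 mice the SI mean was 27.9 CPM. The fitted Log2FC was −0.06 in females and −0.20 (standard error 0.0748) in males, and the male value was −0.13 without the 3 mice and between −0.38 and −0.08 over the other settings.

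Klf9 and Hr, which read the hormone's nuclear effect, did not show a common shift. Klf9 (ENSMUSG00000033863, chr19:23215716-23241401, plus strand) encodes a transcription factor that also responds to glucocorticoids, and averaged 174 ± 16.3 CPM in SI and 178 ± 12.3 in GH females. In SI males it ranged from 166 to 411 CPM (249.8 ± 95.7, n = 7), against 180.4 ± 13.3 in GH males. The 3 SI males above every GH male were animals 25, 33 and 39 at 411, 353 and 246 CPM, and the other 4 averaged 185, or 1.02 times the GH mean. The summed glucocorticoid response genes other than Klf9 were 708 ± 153 CPM in SI and 639 ± 80.7 in GH males (exact permutation p = 0.283), the order turning to 592 ± 37.8 in SI males without animals 25, 33 and 39, and 619 ± 48.1 in SI and 721 ± 85.7 in GH females (exact permutation p = 0.0109, not adjusted; 0.0981 adjusted for the list with Klf9). Hr (ENSMUSG00000022096, chr14:70952019-70973355, plus strand), a corepressor gene strongly responsive to thyroid hormone, was at 21.1 ± 2.46 CPM in SI and 21.2 ± 1.58 in GH females. In SI males it ranged from 9.16 to 28.3 CPM, with animals 25, 33 and 39 the 3 lowest at 10.7, 9.16 and 13.6 and the other 4 averaging 20.5, beside 20 ± 2.92 in GH males. In these 3 males the responsive genes thus lay on opposite sides of the GH mice, Klf9 above and Hr below. The Log2FC intervals all spanned 0, from −0.17 to 0.07 for Klf9 and −0.18 to 0.09 for Hr in females, and from −0.09 to 0.31 and −0.27 to 0.24 in males.

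Over the 7 members, 1 was called in females and none in males by edgeR, where 0.0% of all genes tested were called in males. With DESeq2 and the same surrogate variables, 2 were called in females (Dio2 and Thra; 7.87% of all genes) and 0 in males (0.278%). At an unadjusted p under 0.05 the counts were 3 of 7 in females (20.2% of all genes) and 2 of 7 in males, both lower (7.38% of all genes were lower at that p). All these counts come from the contrast that chose the group by Dio2, and nothing is read from them. The other genes of the pathway, 42 genes in 8 lists, were not used to choose the group and were tested. The lists were, however, drawn up with earlier results of these data known, so their tests are not independent of those results. In females 2 of the 42 were DEGs with edgeR, beside the 3.89% of all genes, and 3 with DESeq2 and surrogate variables, beside 7.87%. Their median Log2FC was 0.00, with 19 lower and 23 higher. In males 0 of 41 were DEGs with edgeR, 6 passed an unadjusted p of 0.05 (5 lower and 1 higher; 2060 of 15833 genes did over the whole table), and DESeq2 with surrogate variables also called 0.

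**Figure D4:**
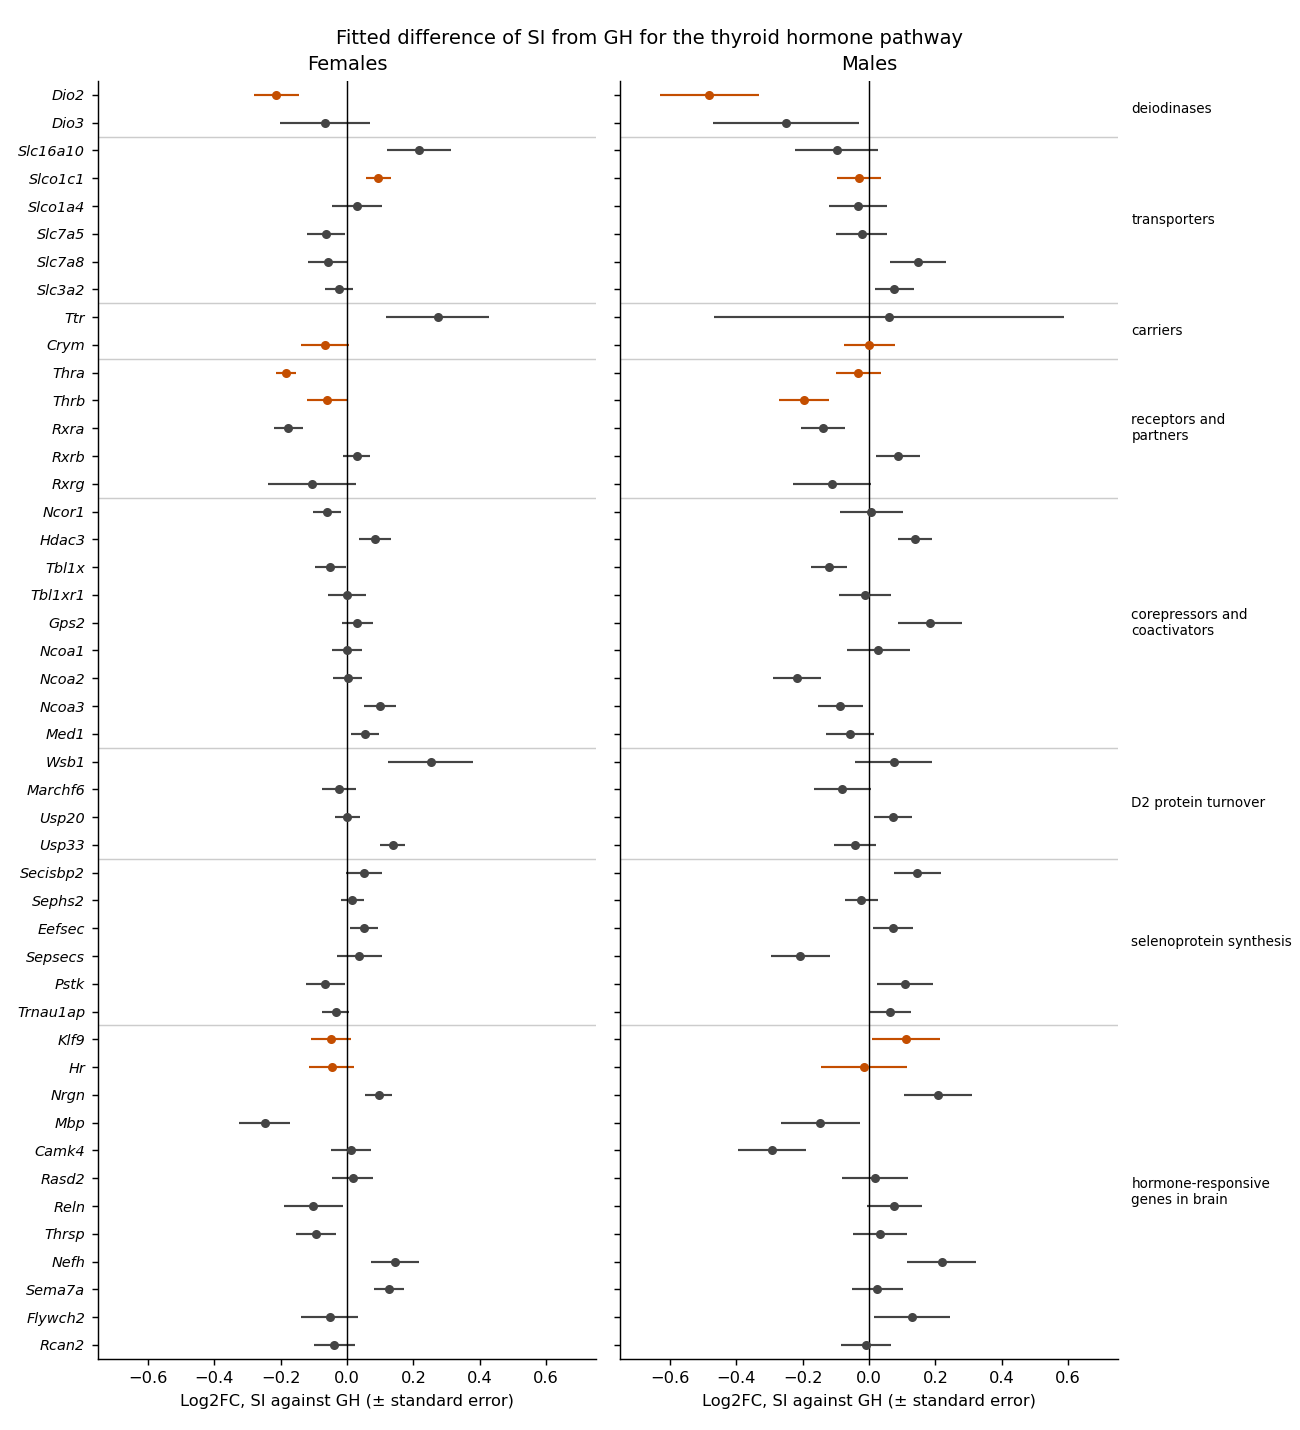
Log2FC of SI against GH (x axis, ± standard error) for the 7 members (orange) and 39 of the other genes of the thyroid hormone pathway (grey), by list, in females and males; Pcp2 is left out for its low counts. In females Rxra at −0.18 and Usp33 at 0.14 are the tested genes that passed the threshold, and none did in males.

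Rxra, which encodes a retinoid X receptor that pairs with thyroid hormone receptors on DNA, fell in SI females. It ranged from 37.4 to 47.9 CPM in SI females (41.6 ± 3.27, n = 8) and from 44.4 to 51.5 in GH females (47.9 ± 2.64, n = 7), with a Log2FC of −0.18 (standard error 0.0441, edgeR adjusted p = 0.0361). In males the means were 36.1 ± 6.71 (41.2 ± 2.41 without animals 25, 33 and 39) and 43.0 ± 2.31 CPM and the Log2FC was −0.14 (adjusted p = 0.382; −0.08 without them), and the difference between the sexes did not pass the test (adjusted p = 0.862). The other retinoid X receptor genes did not pass: Rxrb was at 0.03 in females and 0.09 in males, and Rxrg at −0.10 and −0.11. Usp33, a deubiquitinase that protects the D2 protein from degradation, rose in SI females, from 86.5 ± 5.92 to 95.5 ± 6.19 CPM (Log2FC 0.14, standard error 0.0363, edgeR adjusted p = 0.0439). In males Usp33 had a Log2FC of −0.04, and its difference between sexes was 0.14 (adjusted p = 0.637). Both female calls depended on single mice: of 15 fits with 1 mouse left out, Rxra passed in 6 and Usp33 in 6, and neither passed without surrogate variables or with the position digit as a factor. Usp33 also did not pass with limma-voom or with DESeq2 without surrogate variables. The highest adjusted p over all alternatives was 0.120 for Rxra and 0.299 for Usp33.

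In the lists of the other deiodinase, transporters, carriers, coregulators and selenocysteine insertion, neither edgeR nor DESeq2 with surrogate variables called a gene outside the 7 members in either sex. Dio3, the inactivating deiodinase and the only other deiodinase analysed here, was at 5.44 ± 1.02 CPM in SI and 5.92 ± 1.32 in GH females, and at 6.07 ± 2.28 and 6.77 ± 2.21 in males (Log2FC −0.07 and −0.25, adjusted p = 0.842 and 0.630). Among the other transporters, Slc16a10 (MCT10) was at 0.22 in females (adjusted p = 0.208) and −0.10 in males. Slc7a8, an amino acid carrier that also takes thyroid hormone, was at 0.15 in males and 0.00 without animals 25, 33 and 39. Ttr, the T4 carrier made by choroid plexus, ranged from 17.3 to 4032 CPM in SI males and from 20.9 to 2100.1 in GH males. In females it ranged from 1468 to 3698 CPM in SI and from 775 to 4523 in GH mice. Its Log2FC was 0.27 in females and 0.06 in males. The 12 choroid plexus markers, Ttr among them, varied with it, from 46.4 to 5131 CPM in sum over the mice of the GH groups. Among coregulators, the largest values were Ncoa3 (0.10) and Hdac3 (0.09) in females and Ncoa2 (−0.22, adjusted p = 0.312) and Gps2 (0.18) in males, where they were −0.11 and 0.01 without animals 25, 33 and 39. Wsb1, part of the ubiquitin ligase for D2, was at 0.25 in females (edgeR adjusted p = 0.288) and 0.07 in males. Its male value was 0.33 without animals 25, 33 and 39. Marchf6, another ligase of D2, was at −0.08 in males. The genes that insert selenocysteine, which D2 needs at its active site, ranged from Pstk at −0.07 to Eefsec at 0.05 in females and from Sepsecs at −0.21 (adjusted p = 0.358) to Secisbp2 at 0.15 in males, and these were −0.04 and 0.03 without the 3 males.

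Of the 11 other hormone-responsive genes, edgeR called none as a DEG. Mbp, a myelin gene, was at −0.25 in females (edgeR adjusted p = 0.0834; called by DESeq2 with surrogate variables and with length and GC trends removed) and −0.15 in males, or 0.03 without animals 25, 33 and 39, beside the 7 oligodendrocyte markers, which hold Mbp and summed to 7409 ± 1104 CPM in SI and 8495 ± 1275 in GH females (exact permutation p = 0.0984). Camk4, a calcium-dependent kinase gene induced by T3 in neurons, was at −0.29 in males (adjusted p = 0.319) and 0.01 in females. Nefh, a neurofilament gene, was at 0.22 in males and 0.15 in females. Without the 3 males these values were −0.16 for Camk4 and 0.04 for Nefh. Nrgn was called in males by DESeq2 without surrogate variables, and its male Log2FC was 0.21 with the 3 males and −0.09 without them. Pcp2, a Purkinje cell gene, was near the detection limit, at 0.27 ± 0.149 CPM in SI and 0.847 ± 1.05 in GH females (Log2FC −1.55, adjusted p = 0.117), and was too low to be tested in males. The summed markers of microglia, striatum and choroid plexus gave adjusted p-values of 0.260 or more in both sexes (exact permutation). In females the markers of hippocampal neurons and thalamus gave 0.301 and 0.607, and in males the endothelial and oligodendrocyte markers gave 0.253 and 0.404.

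The sex difference among GH mice did not enter the choice of genes and was tested in a fit of all 30 mice. None of the 7 members passed the edgeR test between GH males and GH females, where 6.31% of 16391 genes had an adjusted p under 0.05. At an unadjusted p under 0.05 none of the 7 passed either, beside 4329 of the 16391 genes. DESeq2 with surrogate variables also called 0 of the 7. Dio2 had the largest value, with a mean of 65.4 CPM in GH males and 71.3 in GH females (Log2FC −0.23, standard error 0.132, edgeR adjusted p = 0.276, interval −0.49 to 0.03). This value was −0.12 without surrogate variables, −0.02 without SI males 25, 33 and 39, and −0.28 to −0.13 with 1 mouse left out, the smallest without female SI 53. Thra was at −0.07 (adjusted p = 0.191), and the other 5 members lay between −0.04 and 0.05 with adjusted p-values of 0.620 to 0.796. The astrocyte markers were lower in GH males for all 10 genes, with a median of −0.27 and 4 DEGs (3.31% of all genes tested were lower at that threshold). Of the 42 other pathway genes, 3 passed the test, 2 of them higher and 1 lower in GH males. Nrgn, a T3-responsive gene for a postsynaptic calmodulin-binding protein, was higher (Log2FC 0.25, edgeR adjusted p = 0.0346), and Thrsp was lower (−0.31, adjusted p = 0.0146). All 3 calls were lost without surrogate variables and when SI males 25, 33 and 39 were left out of the fit. With 1 mouse left out at a time, Thrsp passed in 29 of 30 fits (not without male GH 3) and Nrgn in 20.

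The levels of the 7 genes were set in order per kilobase of transcript, from the mean transcript length in the NCBIM37 annotation. Over all 30 mice the level was 1057 ± 97.0 CPM per kilobase for Thra, 107 ± 21.3 for Crym, 59.6 ± 16.8 for Klf9, 19.8 ± 2.40 for Slco1c1, 10.5 ± 2.38 for Dio2, 5.80 ± 1.18 for Hr and 5.09 ± 0.852 for Thrb. Thra stood above every other member in every mouse. The ranges of Crym (74.2 to 171) and Klf9 (47.6 to 126) overlapped, as did those of Dio2 (5.95 to 14.2) and Hr (2.69 to 8.31), whereas Slco1c1 (15.4 to 27.1) was above Dio2 throughout. Hr and Thrb did not differ beyond their spread, and with the longest transcript in place of the mean their order was the opposite, at 3.52 for Hr and 4.64 for Thrb.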

How the data were processed

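Hippocampal RNA from 30 mice was sequenced as paired-end, polyA-selected libraries. The authors deposited 1 table of raw counts per gene; the submitters' processing notes name Trimmomatic 0.39, Salmon 1.8.0, DESeq2 1.24.0 and the build GRCm39, and every gene in the table has a total of at least 100. Groups came from the sample labels, which give each mouse's sex, housing and animal number. GH mice shared cages and SI mice did not, and the labels do not say which mice shared a cage, so no cage term was fitted and GH mice of 1 cage count as separate in every p-value.

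Counts were analysed per sex with edgeR 4.0.16: genes under a minimum count of 10 were removed (filterByExpr), libraries were scaled by TMM, surrogate variables (sva 3.50.0; 3 in females, 2 in males, 4 over all 30 mice) entered the quasi-likelihood model, and p-values were adjusted over all genes tested (Benjamini-Hochberg, threshold 0.05). The standard error is the Log2FC divided by the square root of F, and intervals are approximate 95% intervals. Surrogate variables were found anew in each fit that used them, and the male fit without SI males 25, 33 and 39 had 4. Log2 CPM used a prior count of 2. Alternatives were DESeq2 1.42.0, limma 3.58.1 (voom with quality weights), no surrogate variables, the position digit, no filter, a length and GC correction, and leaving out mice; marker sums without their leading gene and values without SI males 25, 33 and 39 were partly added after seeing the data. Within-group correlations used residuals from group means, and summed marker levels an exact permutation test over 6435 splits. The steps were tested on simulated data in R 4.3.3.

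The 7 members and all lists (8 pathway lists; markers of astrocytes, endothelium, choroid plexus, hippocampal neurons, striatum, thalamus, oligodendrocytes and microglia; glucocorticoid response genes) were chosen with earlier results of these data known. Named were the members, each pathway gene with an adjusted p under 0.05, the 2 genes of each pathway list with the largest absolute Log2FC in each sex, and the 5 genes most like Dio2; Rxrb, Rxrg and Nr1d1 were named after their values were seen. Symbols matched 16439 of 17477 gene IDs (94.1%) and lengths 15964 (91.3%). Gene coordinates and lengths are from the NCBIM37 annotation by gene ID, and promoters from RefSeq (GRCm38.p6), with entries for Dio2, Thrb, Klf9 and Slco1c1 and none for Thra, Hr and Crym. Dio1 and Serpina7 were not analysed here, and some pathway genes that the rule or the counts include are not reported here by name.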

Additional observations from a re-analysis of the deposited data

Results flagged for a closer look

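In 3 of the 28 combinations of member and group tested, 1 mouse lay far from the others, measured as its gap to the nearest mouse over the group's range. GH female 71 had the lowest Thra of its group at 1066 CPM (a gap of 0.607 of the range, critical value 0.568 for 7 mice) and the highest Slco1c1 at 71.9 CPM (0.575). Without this mouse the female Log2FC of Thra was −0.22 and that of Slco1c1 0.18. SI female 41 had the lowest Crym of its group at 155 CPM (0.567, critical value 0.526 for 8 mice). Chance alone flags about 5% of groups.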

How the results depend on the processing

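No paired analysis was possible because the groups share no animal numbers. The number of female DEGs (624; 470 lower, 154 higher) became 0 without surrogate variables (1875 genes at an unadjusted p under 0.05), 0 with the position digit as a factor (1915), 1262 with DESeq2 and surrogate variables, 401 with DESeq2 without them and 1396 with length and GC trends removed (880 lower, 516 higher); limma-voom gave 532 lower and 306 higher and the fit of all mice 284 and 226. Leaving out 1 mouse gave 88 (without SI 68) to 1427 (without GH 78). Male DEGs (0) became 44 with DESeq2 and surrogate variables, 304 with DESeq2 without them and 1 without SI males 25, 33 and 39; leaving out 1 mouse gave 0 to 2414, the highest without SI 27. The count for the interaction (0) became 8 with DESeq2, and 0 to 385 with 1 mouse left out (385 without male SI 7). The sex difference among GH mice (1035) became 16 without surrogate variables, 1935 with DESeq2, 647 with no filter and 150 without the 3 males, and 112 to 2654 with 1 mouse left out (without male GH 3 and male GH 24).

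Dio2 kept its sign in every fit. Its male Log2FC of −0.48 became −0.12 without the 3 males and with surrogate variables found anew. The difference in mean log2 CPM without the 3 males, with no surrogate variables, was −0.42. In males without surrogate variables, Klf9 was at 0.47 and Crym at 0.28. Among GH mice, the sex difference changed sign without surrogate variables for Thrb (0.00) and Slco1c1 (−0.02) and without the 3 males for Klf9 (−0.02) and Crym (−0.01); with 1 mouse left out it spanned −0.12 to 0.05 for Hr, −0.00 to 0.12 for Klf9, 0.00 to 0.13 for Slco1c1 and −0.07 to 0.01 for Thrb. The correlation of Dio2 with Hr in females was 0.029 by rank and 0.053 without the 2 farthest mice, that with Hr in males 0.522 without them, and that with Thrb in males −0.035 without the 3 males. The cause was not tested. The lowest library, at 18809307 counts, still gave every member a count above the filter.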
